A study of Mus musculus with 20 samples.

Results

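A run of 10 neighbouring genes of mouse chromosome 10 were followed across a knockout study of dorsal root ganglia: Avil, Tsfm, March9 (also Marchf9), Cdk4, Tspan31, Mettl1, Ctdsp2, Atp23, Eef1akmt3 and Cyp27b1. They are 10 of the 55416 genes counted. They were chosen because their levels had differed between knockout and control libraries in these same data, so that difference is described here with its values and carries no test. In the animals whose genotype records agree, 8 members stood at 2.19 to 3.18 times the control mean in knockouts and Avil at 1.09 times. Cyp27b1, at 4.76 times, rests on very few counts.

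The animals were adult C57Bl6 mice of both sexes, and RNA was taken from their lumbar dorsal root ganglia, where the cell bodies of sensory neurons sit with their glia. The inducible conditional knockout animals (icKO) are labelled AdvCreERT2; P12 Fl/Fl TAM, and the controls are labelled P12 Fl/Fl TAM. Both therefore carried floxed Prdm12 alleles, Prdm12 being a transcriptional regulator of nociceptive sensory neurons, and both received tamoxifen, with RNA taken 1 month later. CreERT2 is a Cre recombinase that enters the nucleus when tamoxifen is present. The series text names a Rosa26-driven CreERT2 instead, and no source used here says what the Cre construct carries beside the recombinase. Each of 10 animals, 5 per genotype title, gave a library after formalin injection, which is a standard pain stimulus, and a noninjected library. Per the labels no control carried the Cre, so the Cre transgene and the loss of Prdm12 cannot be told apart.

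Avil encodes advillin, an actin-binding protein of the gelsolin and villin family that marks peripheral sensory neurons, and its regulatory sequences are used to drive Cre in those cells. Genes that lie next to each other need not share a function. The members here include a cell cycle kinase, a mitochondrial translation factor, a tRNA methyltransferase and a vitamin D enzyme.

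For 4 of the 10 animals, the sample title and the name of the deposited counts give opposite genotypes. The animals titled control 1 and control 4 were deposited as icKO, and the animals titled icKO 2 and icKO 3 were deposited as control. Both records agree for 6 animals, icKO 1, 4 and 5 and control 2, 3 and 5. The 19 libraries used held 11763893 to 22392635 counts. The formalin library of icKO 1 held 2829 counts, of which 2 fell on the members, and it was left out. Values are CPM, reads of a gene per 1e+06 counts, after scaling by trimmed mean of M values (TMM).

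The targeted gene, Prdm12, was read first. Its animal totals averaged 19.9 ± 2.95 CPM in the 3 icKO animals and 93.9 ± 8.73 CPM in the 3 controls with agreeing records (SD), a ratio of 0.212. Over all 19 libraries it lay between 14.4 and 38.1 CPM in the 9 deposited as icKO, against 72.9 to 113.7 CPM in the 10 deposited as control. By Prdm12, the 4 animals with differing records went with their deposited names and against their titles. They are called here by title and deposited name together, and results are given first for the 6 animals with agreeing records.

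In the reference annotation (GENCODE M21) the members lie in the order Atp23, Ctdsp2, Avil, Tsfm, Eef1akmt3, Mettl1, Cyp27b1, March9, Cdk4 and Tspan31. No other protein-coding gene among those counted lies between them. Promoter windows of RefSeq (GRCm38.p6, 250 bases before to 50 after the gene start) matched 9 members, in 10 windows because Ctdsp2 has a pair of them. The counts were made on GRCm39, and these coordinates were not converted to it. The following 4 windows are shown because they stand for Avil, whose level was alike in both genotypes, for Tsfm, with the widest proportional gap between library sets among the members, and for Cdk4 and Tspan31, a pair whose models overlap. They are written 5′ to 3′. Capitals mark the E-box motif CACGTG, the GC box motif GGGCGG and the CCAAT box motif ATTGG, each searched on both strands.
Avil (chr10:127000459-127000758, plus strand): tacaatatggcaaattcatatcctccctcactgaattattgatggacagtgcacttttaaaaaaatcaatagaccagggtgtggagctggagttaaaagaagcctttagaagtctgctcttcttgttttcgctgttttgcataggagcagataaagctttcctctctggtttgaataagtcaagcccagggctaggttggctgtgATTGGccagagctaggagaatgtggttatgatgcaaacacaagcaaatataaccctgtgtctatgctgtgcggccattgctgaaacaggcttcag
Tsfm (chr10:127030765-127031064, minus strand): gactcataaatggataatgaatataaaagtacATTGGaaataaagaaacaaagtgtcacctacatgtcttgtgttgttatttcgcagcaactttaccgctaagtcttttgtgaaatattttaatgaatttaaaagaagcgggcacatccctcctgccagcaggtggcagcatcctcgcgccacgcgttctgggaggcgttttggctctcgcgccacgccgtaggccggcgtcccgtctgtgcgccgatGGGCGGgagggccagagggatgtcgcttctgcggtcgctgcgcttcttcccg
Cdk4 (chr10:127063285-127063584, plus strand): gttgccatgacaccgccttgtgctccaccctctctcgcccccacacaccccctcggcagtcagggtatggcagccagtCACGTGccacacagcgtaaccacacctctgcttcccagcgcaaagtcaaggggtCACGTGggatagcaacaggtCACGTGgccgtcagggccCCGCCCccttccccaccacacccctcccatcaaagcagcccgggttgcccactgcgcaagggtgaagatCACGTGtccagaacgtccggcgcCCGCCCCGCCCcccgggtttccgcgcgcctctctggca
Tspan31 (chr10:127070212-127070511, minus strand): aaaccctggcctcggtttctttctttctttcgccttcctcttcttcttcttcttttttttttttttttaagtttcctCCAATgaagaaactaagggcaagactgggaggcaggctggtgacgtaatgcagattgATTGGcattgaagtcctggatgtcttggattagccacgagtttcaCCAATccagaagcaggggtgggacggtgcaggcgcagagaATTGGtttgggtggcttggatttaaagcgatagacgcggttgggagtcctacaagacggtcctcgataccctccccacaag

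The windows of these neighbours held different letters. The Avil window had 2 CG dinucleotides and 43% G and C, and 1 ATTGG. The Tsfm window had 23 CG dinucleotides, 1 GGGCGG and 1 ATTGG. The Cdk4 window had 4 CACGTG and 3 GGGCGG matches, and the Tspan31 window had 4 ATTGG matches and none of the other marked motifs. Of the 10 member windows, 2 held CACGTG, 5 held GGGCGG and 5 held ATTGG, while 7.15%, 35.7% and 37.4% of all 32851 windows of the same length held them. No motif of these 3 was in all member windows, and a match is a description of letters, not a binding site.

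Tsfm encodes the mitochondrial translation elongation factor Ts, which recycles the factor that brings tRNAs to the mitochondrial ribosome. In the libraries of the icKO animals with agreeing records it stood at 48.2 CPM (icKO 1, noninjected), 39.3 and 43.3 CPM (icKO 4, formalin and noninjected) and 33.5 and 41.2 CPM (icKO 5, formalin and noninjected). In the 6 libraries of the controls with agreeing records the lowest was 11.5, the median 13.7 and the highest 15.0 CPM. Every icKO library was above every control library. Animal totals averaged 41.7 ± 5.48 CPM in icKO animals and 13.3 ± 0.369 CPM in controls (SD, n = 3 each), a ratio of 3.13.

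Cdk4 encodes the cyclin-dependent kinase that pairs with D-type cyclins and phosphorylates the retinoblastoma protein in the G1 phase. Its libraries stood at 104 CPM in icKO 1 (noninjected), 108 and 105 CPM in icKO 4, and 120 and 105 CPM in icKO 5 (formalin, then noninjected). Control libraries with agreeing records lay between 44.7 and 52.9 CPM. The lowest icKO library was thus far above the highest control library. The averages were 107 ± 5.30 CPM in icKO animals and 48.9 ± 1.97 CPM in controls (SD, n = 3 each), a ratio of 2.19.

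Tspan31, a tetraspanin membrane protein gene whose model overlaps that of Cdk4, was at 128 CPM in icKO 1 (noninjected), 109 and 119 CPM in icKO 4, and 114 and 108 CPM in icKO 5 (formalin, then noninjected). Control libraries with agreeing records lay between 46.6 and 54.8 CPM. Its ratio was the steadiest of the 10 members over libraries, between 2.07 and 2.46 in the 9 libraries deposited as icKO and between 0.925 and 1.08 in the 10 deposited as control, each divided by the control mean of the same agent. The averages were 116 ± 8.68 CPM in icKO animals and 51.0 ± 3.12 CPM in controls (SD, n = 3 each), a ratio of 2.29.

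March9 encodes a membrane-bound E3 ubiquitin ligase. Its libraries stood at 36.4 CPM in icKO 1 (noninjected), 27.0 and 28.3 CPM in icKO 4, and 17.2 and 36.8 CPM in icKO 5 (formalin, then noninjected), so the formalin library of icKO 5 stood well below the others. Control libraries with agreeing records lay between 8.50 and 10.4 CPM, below all of them. The averages were 29.8 ± 5.46 CPM in icKO animals and 9.35 ± 0.702 CPM in controls (SD, n = 3 each), a ratio of 3.18.

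Mettl1 encodes the catalytic subunit of the enzyme that places 7-methylguanosine on tRNAs. It averaged 35.7 ± 3.63 CPM in icKO animals and 12.6 ± 1.49 CPM in controls, a ratio of 2.83. Ctdsp2 encodes a small phosphatase of the RNA polymerase II tail and hosts the microRNA gene Mir26a-2. It averaged 154 ± 24.9 CPM in icKO animals and 67.0 ± 2.50 CPM in controls, a ratio of 2.30. Atp23 encodes a metallopeptidase and assembly factor of the mitochondrial ATP synthase, known as such from yeast. It averaged 15.4 ± 0.671 CPM in icKO animals and 6.56 ± 0.472 CPM in controls, a ratio of 2.34 (SD, n = 3 each for all 3 genes). None of the 3 had an icKO library as low as a control library.

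Eef1akmt3, which encodes a lysine methyltransferase of the translation elongation factor eEF1A, and Cyp27b1, which encodes the 1-alpha-hydroxylase that activates vitamin D, were thinly counted. Eef1akmt3 had 225 counts over the 9 libraries deposited as icKO and 81 over the 10 deposited as control. Cyp27b1 had 80 counts in the icKO-named libraries and 22 in the control-named ones, 2 of which had none. On library totals those counts give a ratio of 2.76 for Eef1akmt3 and 3.61 for Cyp27b1. With agreeing records Cyp27b1 had 34 counts in 5 icKO libraries and 8 in 6 control libraries. Its ratio of animal means, 4.76, became 11.5 without control 5, 10.1 with formalin libraries only and 3.03 with noninjected libraries only. Per library, Cyp27b1 had 3 to 14 counts in icKO-named libraries and 0 to 5 in control-named ones, so these sets overlapped.

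Avil stood apart from its neighbours. It was at 1135 CPM in icKO 1 (noninjected), 775 and 933 CPM in icKO 4, and 533 and 811 CPM in icKO 5 (formalin, then noninjected), while the 6 control libraries lay between 717 and 881 CPM. The icKO libraries thus lay both above and below the controls. Animal totals averaged 870 ± 234 CPM in icKO animals and 797 ± 48.0 CPM in controls (SD, n = 3 each), a ratio of 1.09. The ratio was 1.22 in noninjected and 0.794 in formalin libraries, and the second of these rests on 2 icKO libraries. The summed level of 10 sensory neuron markers was likewise highest in icKO 1, at 14033 CPM, and lowest in the formalin library of icKO 5, at 7898 CPM. Between these ends the orders could differ. The formalin library of the animal titled control 4 had 9572 CPM of markers and 847 CPM of Avil. That of control 3 had 11281 and 785 CPM. Relative to the summed sensory neuron markers, the Avil log2 ratio was 0.06 with agreeing records, against 0.13 unscaled. Beyond that scaling, the part of neuron content in the Avil values was not tested, and in whole ganglia fewer neurons and less RNA per neuron cannot be told apart.

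**Figure D1:**
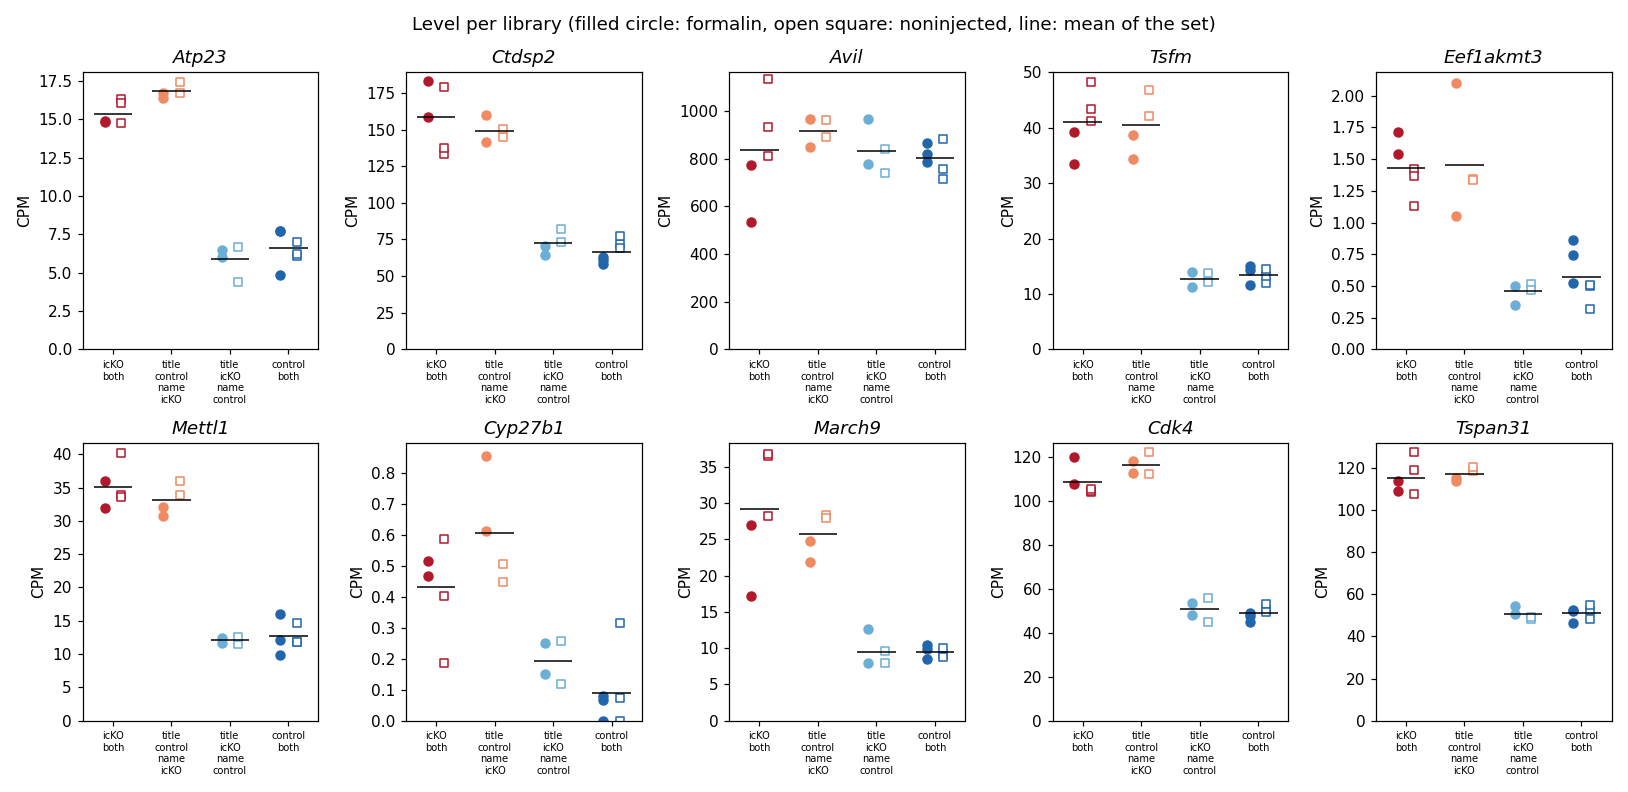
CPM of each member in gene order, 1 panel per gene with its own axis from 0, for 19 libraries in 4 sets: icKO by both records, titled control but deposited as icKO, titled icKO but deposited as control, and control by both records. Filled circles are formalin libraries, open squares are noninjected ones and lines are set means. Tsfm, for example, lies between 33.5 and 48.2 CPM in both sets deposited as icKO and between 11.2 and 15.0 CPM in both deposited as control, while the Avil sets overlap.

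The levels in the 4 animals with differing records are given as a description. The members were chosen by deposited name with these animals included, so the side on which they fall was set by that choice and adds nothing to the reading of Prdm12. Tsfm stood at 3.02 and 3.14 times the mean of the 3 agreeing controls in the animals titled control 1 and control 4. It stood at 0.864 and 1.03 times that mean in the animals titled icKO 2 and icKO 3. Over the 8 members other than Avil and Cyp27b1, the ratios of the animals deposited as icKO but titled control ran from 2.10 to 3.02 in control 1 and from 2.31 to 3.14 in control 4. Those of the animals deposited as control but titled icKO ran from 0.839 to 1.12 in icKO 2 and from 0.719 to 1.19 in icKO 3. The agreeing icKO animals covered 1.97 to 3.85 and the agreeing controls 0.865 to 1.17, so no ratio of any animal for these 8 genes lay between 1.19 and 1.97.

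Grouped by deposited name over all 19 libraries, 8 of the 10 members were higher in every icKO-named library than in any control-named one, the exceptions being Avil and Cyp27b1. Of all 19063 genes tested, 47 were higher in that way (0.247%) and 59 were lower (0.31%). The members were chosen on this contrast, so nothing is read from that share. Of the 47, 39 were no members, and 3 of these lie on chromosome 10, namely Ggt5, Vps26a and Rassf9. Grouped by title, no member had sets that did not overlap, against 0% of all genes higher and 0.00525% lower. By totals of the 10 animals under their deposited names, 9 of 10 members had sets that did not overlap, beside 2.05% of all genes higher and 2.15% lower. The 6 agreeing animals also gave 9 of 10, beside 10.6% higher and 12% lower, and the 10 animals by title gave 0 of 10, beside 0.409% higher and 0.934% lower.

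The sizes of the ratios were alike but not equal. The median of the 10 log2 ratios was 1.26 with agreeing records, 1.39 by deposited name and 0.20 by title. Over all genes tested, the median log2 fold change of the fit was -0.0041. That is another measure, fitted with a sex term. The members were chosen on this contrast, so nothing is read from the gap. In the 9 icKO-named libraries, Tsfm had a ratio above that of Tspan31 in 9 and above that of Cdk4 in 8. Mettl1 was above Tspan31 in 9, and Cdk4 was above Tspan31 in 5. Ctdsp2 was above Cdk4 in 4 and above Tspan31 in 5, so neither order held across libraries. These counts, like the single-library ratios below, divide by the agreeing-control mean of the same agent. The 9 libraries come from 5 animals and share that divisor within an agent, so they are not independent orderings. These counts pool both agents, and the order of the mean ratios differed by agent. By deposited name, and divided by the mean of all control-named libraries of the agent, the formalin ratios were 2.36 for Cdk4, 2.54 for Ctdsp2 and 2.21 for Tspan31. The noninjected ratios were 2.16 for Cdk4, 1.99 for Ctdsp2 and 2.34 for Tspan31. The lowest and highest ratios in single libraries were 2.46 and 3.64 for Tsfm, 1.79 and 3.98 for March9, 2.42 and 3.15 for Mettl1, 2.04 and 2.55 for Cdk4, 1.83 and 3.02 for Ctdsp2, and 2.19 and 2.71 for Atp23.

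**Figure D2:**
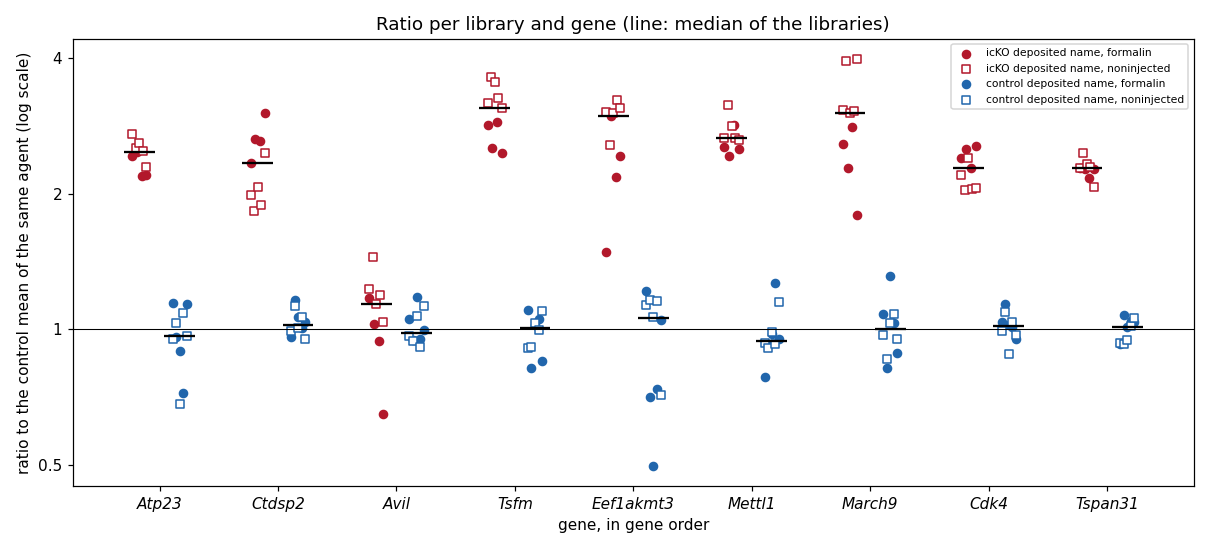
Ratio of each library to the mean of the agreeing controls of the same agent, on a log scale with base 2, for 9 members in gene order. The 9 libraries deposited as icKO stand left of the 10 deposited as control, with filled circles for formalin and open squares for noninjected libraries and a line at each median. Tspan31 lies between 2.07 and 2.46 in the icKO-named libraries and the Avil ratios lie on both sides of 1.

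The members other than Avil were also correlated over the 19 libraries taken as a whole. Each member's log2 CPM was correlated with the mean of the other members except Avil over the 19 libraries. Pearson's r was 0.988 for Tspan31, 0.985 for Cdk4, 0.971 for Tsfm, 0.965 for Atp23, 0.960 for Mettl1, 0.953 for Ctdsp2, 0.917 for March9, 0.871 for Eef1akmt3 and 0.758 for Cyp27b1, and 0.203 for Avil. The libraries fall into 2 separate sets by deposited name, share 10 animals and were used to choose the genes, so these values describe that split and carry no p. No correlation within a set was computed. Among icKO-named libraries, the noninjected one of icKO 1 had the highest Tsfm and Mettl1 (48.2 and 40.2 CPM) but the lowest Ctdsp2 (133 CPM). The formalin library of icKO 5 had the lowest Tsfm (33.5 CPM) and the highest Ctdsp2 (183 CPM). Joint movement within a set is thus not shown.

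The same measure, over 14276 other genes, named those most like the group. The highest were Stk32a (r 0.966), a kinase gene, Chrna6 (0.957), a nicotinic receptor subunit gene, Atp6ap1l (0.933), Gpr151 (0.930), an orphan receptor gene, Cars (0.930), a cysteinyl-tRNA synthetase gene, and Arid5a (0.930). Chrna6 lay between 151 and 267 CPM in icKO-named libraries and between 72.3 and 103 CPM in control-named ones. The lowest were Gng2 (r -0.965), a G protein subunit gene, Otoa (-0.956), Prdm12 (-0.945) and Serpina1e (-0.931). None of these 10 genes lies on chromosome 10, and none had overlapping library sets. They were picked by correlation with a mean that is itself split by deposited name. The lack of overlap largely follows from that pick, so nothing is read from it.

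The genes outside the span are given from the fit over all genes. The ends of the span were set by which genes differed by genotype in these data, so genes next to it are in part those that differed less, and their values are no independent sign of where the difference ends. Beyond Tspan31 the next tested gene, the noncoding A730063M14Rik, averaged 3.74 ± 1.34 CPM in icKO animals and 1.47 ± 0.358 CPM in controls (SD, n = 3 each), with a log2 fold change of 1.32 (SE 0.28, edgeR adjusted p = 0.0808), and its library sets overlapped by deposited name. It passed in 7 of 15 alternatives, among them all 10 animals by deposited name (log2 fold change 1.22, edgeR adjusted p = 0.0108), without icKO 1 (1.55, edgeR adjusted p = 0.0432), without control 2 (1.53, edgeR adjusted p = 0.0471) and without the formalin library of icKO 5 (1.01, edgeR adjusted p = 0.0467). Agap2, which encodes a GTPase-activating protein, followed at 30.6 ± 5.10 CPM in icKO animals and 23.0 ± 3.95 CPM in controls, with a log2 fold change of 0.40 (SE 0.08, edgeR adjusted p = 0.0788). It passed without the formalin library of icKO 5 (0.59, edgeR adjusted p = 0.0293). The next genes, Os9, B4galnt1 and Slc26a10, had log2 fold changes of 0.04, 0.07 and 0.15.

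Before Atp23, the nearest tested genes were Lrig3 and Gm47862, at log2 fold changes of 0.38 and -0.63 (SE 0.25 and 0.58), and Slc16a7, Fam19a2 and Usp15, at 0.02, 0.27 and -0.19. Between members, the noncoding Gm49335 was at 0.34 (SE 0.31, edgeR adjusted p = 0.578). Of the 40 tested genes nearest on either side, 1 passed the threshold, against 0.897% of all 19063 genes in that fit. DESeq2 gave 3 higher and 2 lower of the 40 after adjustment, against 3.83% and 1.57% of all genes. At an unadjusted p under 0.05 edgeR's test gave 8 higher and 4 lower, 30% of the 40, against 19.1% of all genes. The gene that passed was Mbd6, which was lower at 82.5 ± 7.75 CPM in icKO animals, against 123 ± 7.80 CPM in controls (SD, n = 3 each; log2 fold change -0.58, SE 0.10, edgeR adjusted p = 0.0486). That call was lost without control 3, control 5, icKO 4 or icKO 5 (edgeR adjusted p = 0.264, 0.127, 0.0811 and 0.0659), and by deposited name over all 10 animals (log2 fold change -0.20, edgeR adjusted p = 0.591). None of the 40 separated the 19 libraries, which the choice of members by that measure partly fixed. The median log2 fold change was 0.08 for the 20 genes before Atp23 and 0.06 for the 20 beyond Tspan31.

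**Figure D3:**
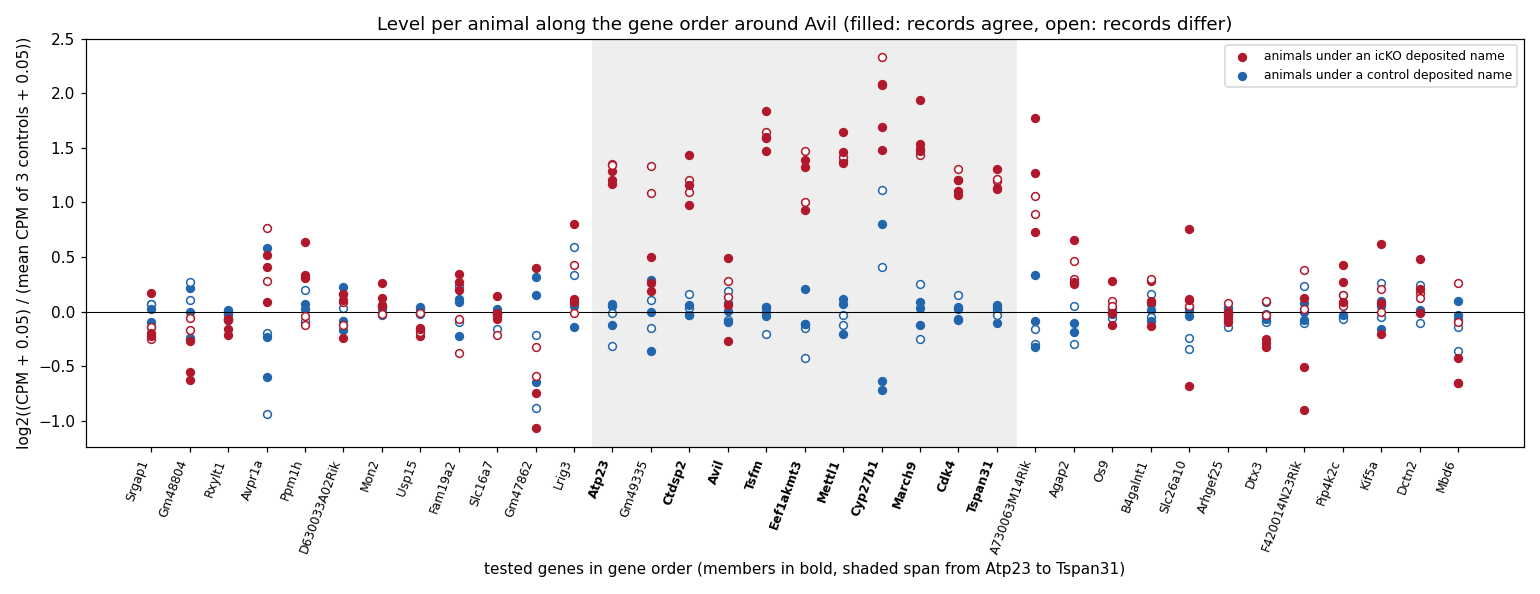
Log2 ratio of each animal's CPM (plus 0.05) to the mean of the 3 agreeing controls (plus 0.05), for tested genes in gene order around Avil, with members in bold and the span from Atp23 to Tspan31 shaded. Red points are animals deposited as icKO, blue ones animals deposited as control, filled where both records agree and open where they differ. Within the shaded span the red points stand above the blue ones for every member but Avil, at which both lie near 0.

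Some gene models in the span share bases on opposite strands. In the reference annotation Avil and Tsfm overlap by 9423 bases, Cdk4 and Tspan31 by 641, Eef1akmt3 and Mettl1 by 100, and Atp23 and the pseudogene Gm6333 by 796. The library kit does not mark strand, so reads from such stretches cannot be assigned to one gene of the pair by strand. The sources used here do not say how the counting treated them.

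Other genes with the members' roles were followed in 10 lists, 128 genes outside the members being tested in the fit on agreeing animals. Of these, 1 rose and 0 fell, against 0.572% of all genes higher and 0.325% lower. At an unadjusted p under 0.05, edgeR's test gave 14 higher and 9 lower (10.9% and 7.03%), against 10.4% and 8.74% of all genes. After adjustment DESeq2 gave 5 higher and 2 lower (3.91% and 1.56%), against 3.83% and 1.57% of all genes. These shares are near those of all genes. The gene that rose was Eef1a2, the eEF1A form of neurons and muscle, at 516 ± 134 CPM in icKO animals and 297 ± 30.6 CPM in controls (SD, n = 3 each; log2 fold change 0.77, SE 0.11, edgeR adjusted p = 0.0320). The summed level of 8 skeletal muscle markers was 1735 CPM in the formalin library of icKO 5, against 11.1 to 36.8 CPM over the control-named libraries, and without that library the Eef1a2 fold change was 1.00 (log2, edgeR adjusted p = 0.00964). The Eef1a2 call was lost without control 3, control 5 or icKO 4 (edgeR adjusted p = 0.232, 0.0995 and 0.0965) and without the sex term (edgeR adjusted p = 0.156). It was also lost over all 10 animals by deposited name (log2 fold change 0.56, edgeR adjusted p = 0.211) and with formalin libraries only (0.21, edgeR adjusted p = 0.665).

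Among the 19 genes of the cyclin D and CDK4/6 pathway other than Cdk4, the median log2 fold change was 0.09 and none passed. Ccnd3, a D-type cyclin gene, had the smallest p, at a log2 fold change of 0.44 (SE 0.16, edgeR adjusted p = 0.208). The 12 proliferation markers summed to between 67.2 and 269 CPM in icKO-named libraries and between 61.2 and 102 CPM in control-named ones, and their part in the Cdk4 values was not tested. The medians were -0.16 over 11 mitochondrial translation genes, -0.14 over 15 tRNA methylation genes, 0.11 over 12 vitamin D pathway genes, 0.06 over 21 tetraspanins, -0.05 over 11 genes of eEF1A and its methyltransferases and -0.01 over 13 mitochondrial inner membrane protease genes. They were 0.10 over 10 phosphatases, 0.08 over 6 gelsolin and villin relatives and near 0 over 10 MARCH ligases.

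Marker sums of other cell types were read beside the members, with no test between the sets. Summed markers of neutrophils ran from 304 to 3275 CPM in icKO-named libraries and from 178 to 842 CPM in control-named ones, and erythroid markers from 220 to 1735 CPM in icKO-named libraries and from 134 to 350 CPM in control-named ones. Lymphocyte markers ran from 7.98 to 38.7 CPM in icKO-named libraries, against 4.62 to 11.3 CPM in control-named ones. Macrophage markers ran from 85.0 to 277 CPM (median 96.9) in icKO-named libraries and from 70.7 to 158 CPM (median 110) in control-named ones. Satellite glia markers ran from 3770 to 5045 and from 4231 to 5763 CPM in that order, and Schwann cell markers from 2948 to 4563 and from 2863 to 4936 CPM. Sensory neuron markers ran from 7898 to 14033 CPM in icKO-named libraries and from 9521 to 12869 CPM in control-named ones. Relative to the summed sensory neuron markers, the members' median log2 ratio was 1.257 with agreeing records, against 1.264 unscaled. No gene of these lists was at 0 in any set, and beyond that scaling their part in the members' levels was not tested.

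Formalin was not used to choose the members, so its effect could be tested. Over the 19 libraries grouped by title, none of the 9 members tested passed the threshold, Cyp27b1 being too thinly counted to enter. The lowest edgeR adjusted p was 0.929, none had an unadjusted p under 0.05, and DESeq2 called none. Of all 17671 genes, 0% passed, 515 at an unadjusted p under 0.05. Without a low-count filter March9 passed, at -0.37 (log2, SE 0.095, edgeR adjusted p = 0.0249). With the filter its SE was 0.375 at the same fold change. March9 ran from 7.88 to 27.0 CPM in the formalin libraries titled icKO. The SE without the filter does not reflect that spread, so nothing is read from the call. Each title group held animals of both levels of these genes, and the SE for Tspan31 was 0.29 on the log2 scale in the fit with the filter. With the animal as a block, the log2 difference of formalin minus noninjected was -0.0032 for Tspan31 (SE 0.04), -0.0018 for Cdk4 (SE 0.04), -0.12 for Tsfm (SE 0.08) and -0.06 for Avil (SE 0.08), and none passed.

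Within each of the 9 animals with both libraries, the formalin library differed from the noninjected one by -0.13 to 0.17 (log2) for Tspan31 and by -0.15 to 0.19 for Cdk4. Those ranges are narrow beside the log2 ratios between genotypes of the same genes, 1.19 and 1.13. The members were chosen on that genotype contrast, so nothing is read from the gap. These were also the narrowest ranges among the members. Eef1akmt3 ranged from -0.36 to 1.10, Atp23 from -0.52 to 0.45 and Tsfm from -0.45 to 0.32. Mettl1 ranged from -0.27 to 0.44 and Ctdsp2 from -0.34 to 0.21. March9 ranged from -1.10 to 0.39 and Avil from -0.60 to 0.20, and both were lowest in icKO 5. In that animal the neuron markers summed to 7898 CPM with formalin and 11625 CPM without injection. Its formalin library also held 1735 CPM of summed skeletal muscle markers. The part of cell content in the March9 and Avil values was not tested. The 8 members other than Avil and Cyp27b1 had median ratios of 2.36 in formalin and 2.62 in noninjected libraries with agreeing records, and they did not all lie the same way. March9 had a ratio of 2.30 in formalin and 3.66 in noninjected libraries, and Tsfm 2.67 in formalin and 3.34 in noninjected libraries. Ctdsp2 had a ratio of 2.82 in formalin and 2.06 in noninjected libraries, and Cdk4 2.42 in formalin and 2.05 in noninjected libraries. The formalin ratios rest on 2 icKO libraries.

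**Figure D4:**
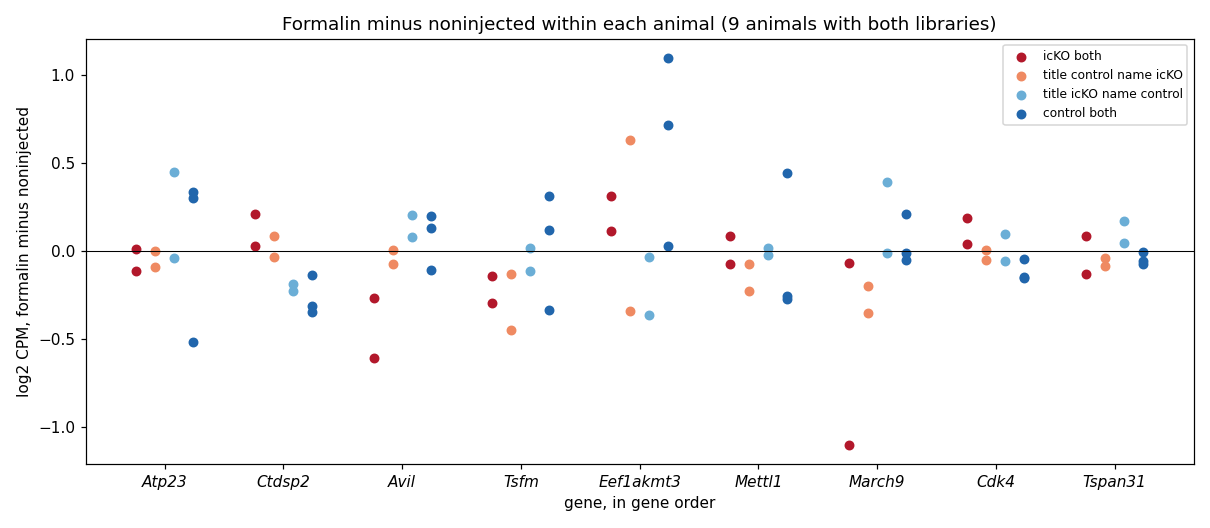
Log2 CPM of the formalin library minus that of the noninjected library of the same animal, for 9 members in gene order and 9 animals, coloured by the 4 sets of records. Points for Tspan31 and Cdk4 lie between -0.15 and 0.19, and the lowest March9 point, at -1.10, belongs to icKO 5.

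Whether formalin acted differently in the 2 genotypes was tested as an interaction in the 6 agreeing animals. None of the 9 members passed with edgeR or DESeq2, against 0.368% of 17669 genes in the edgeR fit (0.232% higher and 0.136% lower), and 3 had an unadjusted p under 0.05, as did 25.3% of all genes in that fit. These were Avil, with the formalin effect in icKO minus that in controls at -0.57 (log2, SE 0.23, edgeR adjusted p = 0.157), March9 at -0.63 (SE 0.26, edgeR adjusted p = 0.164) and Ctdsp2 at 0.42 (SE 0.17, edgeR adjusted p = 0.155). Without icKO 4, Avil and March9 passed, at -0.85 and -1.13 (edgeR adjusted p = 0.0189 and 0.00412), on a single icKO animal with both libraries. With the animal as a block no member passed either, though 1057 genes did.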

How the data were processed

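Libraries of mRNA from mouse lumbar ganglia were sequenced. The authors deposited raw counts per Ensembl gene, one file per library without header. The submitters' processing notes name GRCm39 as build and, as tools, featureCounts 2.0.1, STAR 2.7.8a and bcl2fastq 2.20.0.422, and the kit does not mark strand, per the labels' protocols. Of 55416 IDs, 52083 were named. GENCODE M21 (GRCm38.p6) gave names, gene order and overlaps only.

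The 19 libraries over 1e6 counts were used. Genotype was tested on counts summed per animal and formalin on library counts, with edgeR 4.0.16 in R 4.3.3 (quasi-likelihood F test, TMM scaling, filterByExpr, sex as covariate, Benjamini-Hochberg adjustment over all genes tested, threshold 0.05). DESeq2 1.42.0 was an alternative. All 10 members passed the genotype filter and 9 the formalin one. Of the fits, only that of genotype on agreeing animals was run on simulated data, with the same spread set for every gene. The other fits were not tried in that way. SEs are the log2 fold change divided by the square root of F. Each animal's formalin and noninjected libraries are paired by the deposited animal number. Their deviations from the means of the title groups correlated at -0.14 to 0.57, over 0.1 in 8 of 9 animals. Those means mix the deposited genotypes, which the libraries of an animal share. The values therefore cannot tell pairing within an animal from shared genotype. P-values of the genotype fits measure the spread between animals. Those of the formalin fits measure the spread between libraries and, unless the animal is a block, leave out the pairing.

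Members and lists were chosen with earlier results of these data known. Genes named were Prdm12, the members, genes between them, the 5 nearest tested genes on each side, any of the 20 nearest past the threshold, the 6 highest and 4 lowest by correlation (mean CPM at least 1), and for each functional list those past the threshold or the one with the smallest p. Alternatives were DESeq2, other size factors, no filter, no sex term, a replicate block, other groupings and each animal left out. For the members' ratios they included ratios of medians and scaling to library totals or to summed sensory neuron markers.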

Additional observations from a re-analysis of the deposited data

How the results depend on the processing

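The members' median log2 ratio stayed between 1.15 and 1.39 under 13 alternatives on agreeing or deposited-name grouping, and the calls of Prdm12 held in all 15. Counts of all genes called moved far more, and the cause was not tested. For genotype with agreeing records the count was 171. It was 33 without the sex term, 1030 with DESeq2, 1880 with no filter on low counts, 1391 without the icKO 5 formalin library, 1479 with noninjected libraries only and 991 with formalin libraries only. Leaving out 1 animal gave 8 (without control 3) to 621 (without icKO 1), with 29 without control 5, 34 without icKO 4 and 568 without control 2. By title the count was 0 with edgeR, 1815 at an unadjusted p under 0.05. DESeq2 gave 64 and no filter 851, and leaving out 1 animal gave 0 to 11, the highest without control 1. The block by title number gave 1. Same-numbered animals correlated at -0.18 to 0.36, over 0.1 in 3 of 5 pairs. The deviations were taken from means by title, which mix the deposited genotypes, so this check cannot say what those animals share.

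For formalin over all libraries the count was 0, and 188 without a filter. March9 passed there at -0.37 with an SE of 0.095, against 0.375 with the filter, so nothing is read from that call. For the interaction the count was 65. It was 1316 with DESeq2, 2728 without a filter, where Avil passed at -0.55, and 604 with the small icKO 1 library. With the animal as a replicate block it was 1057, and Prdm12 then passed at -0.73 (edgeR adjusted p = 0.0262), against 0.067 without the block. Leaving out 1 animal gave 0 to 3547, the highest without icKO 4, with 154 without icKO 5 and 0 without each of the others. Without icKO 4 or icKO 5 a lone icKO formalin library is assumed to vary like the other groups.

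Avil's log2 ratio was -0.33 with formalin libraries only. A730063M14Rik passed in 7 of 15 alternatives, Agap2 in 4, and Mbd6 was lost in 8 and Eef1a2 in 6. Depth limits Cyp27b1 and Eef1akmt3.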
